A study of Mus musculus with 8 samples.

Results

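Glycolysis and hypoxia response genes were compared between 2 populations of sorted mouse liver duct cells. The set holds 33 genes, taken by symbol from a list, of 20377 gene symbols in the deposited tables. The list was drawn up with earlier results of these data known. It comprises 18 genes for glycolysis and the fate of pyruvate and 15 genes for the response to low oxygen. The 33 genes had 41 transcript rows, and for the 6 genes with several rows the row with the most counts over all libraries was kept. The cells came from livers of wild type C57BL/6 mice and carried no transgene or treatment according to the labels, which do not state age or sex. Cells other than hepatocytes were stained, and those that bound the duct cell antibody MIC1-1C3, lacked CD26 and were not blood cells were divided by surface ST14 (matriptase, a membrane serine protease) into ST14high and ST14low. Each population had 4 RNA sequencing libraries, replicates 1 to 4. The labels do not tie them to separate animals, so p-values reflect the spread among these libraries alone, and that spread may be technical.

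Glycolysis splits glucose into pyruvate in the cytosol, and lactate dehydrogenase or the mitochondria take the pyruvate further. When oxygen is low, prolyl hydroxylases stop marking the alpha subunits of the hypoxia-inducible factor (HIF) for destruction, and HIF pairs with ARNT to switch on glycolytic enzymes, survival factors and its own hydroxylases. Most enzymes come as several related genes (isoenzymes) with tissue preferences. Bile ducts are fed by branches of the hepatic artery.

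HIF binds a short core element, ACGTG or GCGTG, and promoters are shown for the members whose level in ST14high replicate 1 was over 2 times the median of the other ST14high libraries, as far as the promoter table holds them. Of the 33 genes, 30 matched the RefSeq promoter table by transcript accession (build GRCm38.p6, a later build than the one behind the counts). Epas1, Bnip3l and Ndrg1 did not match. The 250 bases before each annotated start were searched on both strands for either element. When an ACGTG lies within the palindrome CACGTG, both strands match and the 2 matches overlap. At least 1 match was found for 27 of the 30 genes (90.0%; the other 3 were Gpi1, Eno2 and Tpi1), against 41.5% of all 27025 genes and 47.1% of 17491 protein-coding genes with such a window. ACGTG alone was found for 18 genes (60%), against 18.5% and 20.0%. Both elements hold the dinucleotide CG, of which the 42 windows of these genes had a median of 14, the windows of protein-coding genes 10 and all windows 6; its part in the shares was not tested. A match is a run of letters and not a measured binding site. The list was made of genes for glycolysis and the response to low oxygen, many of which HIF switches on. A high share of matches therefore tells nothing about these libraries or populations. The sequences below run 5′ to 3′ on the gene's strand and end at the base before the start, with matches on either strand in capitals. They lie at chr4:43506776-43507025 on the plus strand for Car9, chr12:54203875-54204124 on the minus strand for Egln3, chr6:82774455-82774704 on the minus strand for Hk2, chr10:59951771-59952020 on the minus strand for Ddit4 and chr7:110627407-110627656 on the plus strand for Adm. Pkm2 has 2 annotated starts on the plus strand, with windows at chr9:59656326-59656575 and chr9:59656977-59657226.
Car9: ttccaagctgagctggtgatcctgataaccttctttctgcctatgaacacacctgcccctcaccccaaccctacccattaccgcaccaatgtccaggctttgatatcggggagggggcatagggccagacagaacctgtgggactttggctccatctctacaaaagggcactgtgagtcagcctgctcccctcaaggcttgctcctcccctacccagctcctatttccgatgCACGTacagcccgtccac
Egln3: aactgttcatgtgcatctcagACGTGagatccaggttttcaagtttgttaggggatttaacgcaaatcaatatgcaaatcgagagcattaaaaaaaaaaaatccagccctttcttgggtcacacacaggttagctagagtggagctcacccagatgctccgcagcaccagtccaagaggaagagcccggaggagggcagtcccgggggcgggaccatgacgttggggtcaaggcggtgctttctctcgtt
Hk2: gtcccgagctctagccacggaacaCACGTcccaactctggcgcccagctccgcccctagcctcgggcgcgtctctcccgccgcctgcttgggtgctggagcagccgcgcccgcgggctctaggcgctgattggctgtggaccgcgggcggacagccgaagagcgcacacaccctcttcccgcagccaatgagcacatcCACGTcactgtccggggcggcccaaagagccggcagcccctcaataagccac
Ddit4: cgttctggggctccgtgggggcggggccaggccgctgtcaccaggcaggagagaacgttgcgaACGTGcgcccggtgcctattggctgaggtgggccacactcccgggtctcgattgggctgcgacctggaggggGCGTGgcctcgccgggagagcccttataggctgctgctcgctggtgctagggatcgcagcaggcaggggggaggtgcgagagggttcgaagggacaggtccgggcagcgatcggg
Adm: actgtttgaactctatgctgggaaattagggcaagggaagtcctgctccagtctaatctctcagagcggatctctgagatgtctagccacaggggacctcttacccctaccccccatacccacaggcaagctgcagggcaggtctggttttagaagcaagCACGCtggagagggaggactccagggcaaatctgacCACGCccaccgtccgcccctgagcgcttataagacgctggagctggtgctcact
Pkm2, upstream start: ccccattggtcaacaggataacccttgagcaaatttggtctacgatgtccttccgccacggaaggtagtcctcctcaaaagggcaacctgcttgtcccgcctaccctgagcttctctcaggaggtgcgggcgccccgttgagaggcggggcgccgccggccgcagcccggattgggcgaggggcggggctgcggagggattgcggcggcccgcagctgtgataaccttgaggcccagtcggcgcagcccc
Pkm2, downstream start: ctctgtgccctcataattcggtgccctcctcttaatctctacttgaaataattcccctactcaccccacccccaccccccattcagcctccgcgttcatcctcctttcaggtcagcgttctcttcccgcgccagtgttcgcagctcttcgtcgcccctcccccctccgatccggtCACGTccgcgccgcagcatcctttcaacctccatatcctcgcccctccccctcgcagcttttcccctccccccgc
The single match of Car9 began 18 bases before its start, and that of Egln3 began 229 bases before. Hk2 and Ddit4 had 2 matches each, and both matches of Adm were GCGTG. Of the 2 windows of Pkm2, the upstream one had 0 matches and the downstream one had 1, which began 75 bases before its start.

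Library totals with 1 row per gene ran from 6398307 counts in ST14low replicate 3 to 42769980 in ST14high replicate 3. Duct cell markers summed to between 18107 and 30649 CPM (counts scaled to a common library size) in the 8 libraries, and none of the 14 was at 0 in all of them. ST14high replicate 1 stood apart, at -107 on the leading principal component where the other libraries lay between -11.5 and 55.5. Its pancreatic acinar markers summed to 11146 CPM, against 1646 CPM in ST14high replicate 2 and at most 126 CPM in the other 6. Its markers of fibroblasts, stellate cells and smooth muscle summed to 2688 CPM, against 354 to 723 CPM in the other ST14high libraries and 92.2 to 251 CPM in ST14low. Fold changes that leaving out this library moved by over 1.5 times are therefore also given without it.

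The comparison asks how duct cells sorted for high or low surface ST14 differ, here in their machinery for sugar breakdown and oxygen sensing. None of these genes passed the test, and in all tested members but 1 the populations overlapped. Carbonic anhydrase 9 (Car9) was the member whose 4 ST14high libraries all exceeded its 4 ST14low libraries, and several other HIF targets were high in ST14high replicate 1 and not in its replicates. Of the 33 genes, 32 passed the low-count filter and 1, Gapdh, did not. In edgeR's quasi-likelihood test with Benjamini-Hochberg adjustment over all genes, 0 of the 32 passed an adjusted p of 0.05, as did 0 of 13749 genes (0%). At an unadjusted p under 0.05 there were 2 members, Car9 and Egln3, both higher in ST14high, which is 6.25% of the 32 against 9.56% of all genes tested (6.89% higher and 2.68% lower). Populations did not overlap in 1 member (3.13%), against 6.42% of all genes. DESeq2's Wald test called 0 of the 30 members to which it gave an adjusted p, and 233 of 13580 genes (1.72%). limma's voom test, with an estimated quality weight for each library, called 0 genes. These shares do not exceed the background. The median log2 fold change, ST14high over ST14low, was 0.04 over the 32 members and 0.002 over all genes tested, with 18 members above 0 (56.3%, against 50.3% of all genes). Without ST14high replicate 1 the members' median was -0.08 and all genes' -0.01, with 9 members above 0 (28.1%, against 47.9%).

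**Figure D1:**
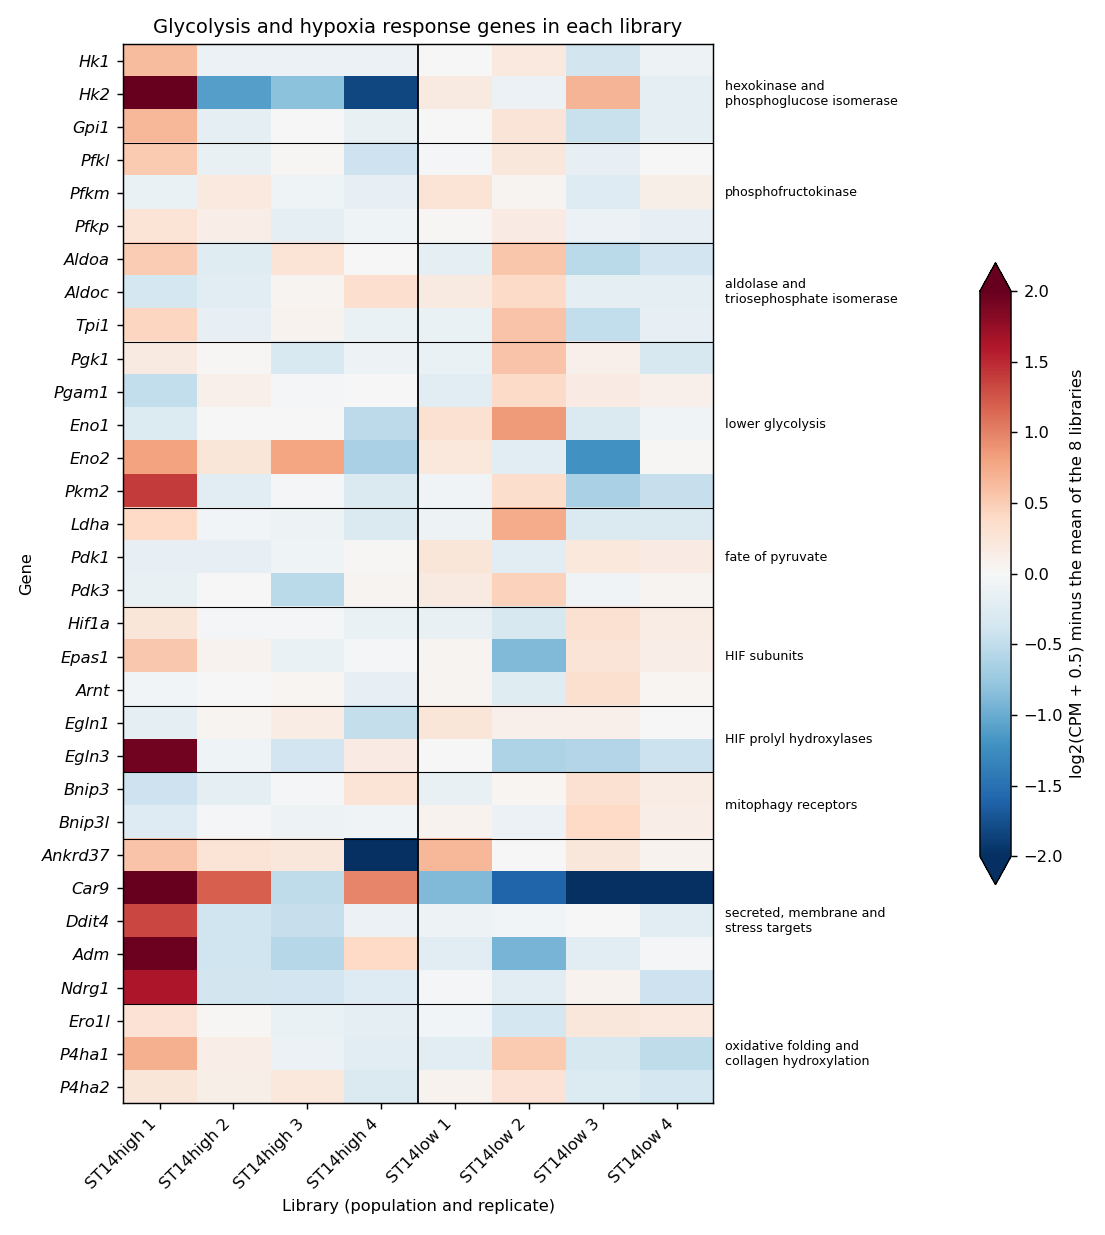
Each row is 1 of the 32 tested genes, grouped by role, and each column 1 library; colour is log2(CPM + 0.5) minus the gene's mean over the 8 libraries, with values beyond 2 either way drawn in the end colours. The first column is red for Hk2, Pkm2, Egln3, Car9, Ddit4, Adm and Ndrg1. Car9 is blue in all 4 ST14low columns and, more faintly, in that of ST14high replicate 3.

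Hexokinase commits glucose to the cell by phosphorylating it. Hk1, the form most tissues carry, was at 119.7 CPM in ST14high replicate 1 and at 70.3, 70.6 and 70.9 CPM in replicates 2, 3 and 4. In ST14low it was at 76.3, 87.6, 59.4 and 71.3 CPM. The 3 closely grouped ST14high values lay inside the ST14low range, and the log2 fold change was 0.17 (SE 0.21, edgeR adjusted p = 0.80), or -0.06 without ST14high replicate 1. Hk2, the form that insulin and HIF induce in muscle and many tumours, was scarce, with 382 counts over the 8 libraries. It was at 15.7 CPM in ST14high replicate 1 and at 0.318, 0.496 and 0 CPM in replicates 2, 3 and 4 (a count of 0 there allows up to 0.089 CPM), and at 1.49, 1.13, 2.31 and 1.03 CPM in ST14low. Replicate 1 thus lay above every other library while its 3 sister libraries lay below all 4 ST14low libraries. Its log2 fold change was 1.47 (SE 1.46, adjusted p = 0.754), and without that library it turned to -2.40 (SE 1.06, adjusted p = 0.51). In edgeR without that library 0 members and 0% of 13881 genes passed an adjusted p of 0.05. Hk2 was then 1 of 2 members with populations that did not overlap (6.25%, against 11.8% of genes) and with an unadjusted p under 0.05 (6.25%, against 9.71%); the other was Car9. Macrophage markers, 10 genes with none at 0 throughout, summed to 243 to 333 CPM in those 3 ST14high libraries and 369 to 980.1 CPM in ST14low. Endothelial markers, also 10 with none at 0 throughout, summed to 41.7 to 395 and 291 to 1175 CPM. Their part in the Hk2 difference was not tested. Gpi1, which turns glucose 6-phosphate into the fructose form, was at 223, 124, 141 and 127 CPM in ST14high and at 142, 169, 104 and 123 CPM in ST14low, so the populations overlapped.

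Phosphofructokinase makes the step that sets the pace of glycolysis, and its liver (Pfkl), muscle (Pfkm) and platelet (Pfkp) subunits were all present. Pfkl was at 89.6 ± 25.7 CPM (SD, n = 4) for ST14high libraries, against 88.2 ± 10.1 CPM in ST14low. Pfkp was at 82.1 ± 12.0 and 78.7 ± 8.24 CPM, and Pfkm at 30.1 ± 3.76 and 32.2 ± 4.73 CPM. Their log2 fold changes lay between -0.10 and 0.06 (between -0.19 and -0.03 without ST14high replicate 1), and the 95% interval of Pfkp, from -0.26 to 0.38, was the narrowest of the 3. Aldolase splits the sugar into a pair of triose phosphates. Aldoa, the general form, had the highest counted level per length of the members. Its mean over the 8 libraries was 312 RPKM (the authors' read count scaled by transcript length and library size), with a range of 212 to 440 RPKM. The rank is uncertain, because the levels of Aldoa and several other members are, as given below with the shared stretches. Aldoa was at 530.2, 313, 452 and 369 CPM in ST14high and at 328, 547, 257 and 287 CPM in ST14low. ST14low replicate 2 was higher than any ST14high library, and the log2 fold change was 0.23 (SE 0.26, adjusted p = 0.782), or 0.09 without ST14high replicate 1. Aldoc, the brain form, was at 93.4 ± 20.0 and 99.2 ± 19.6 CPM. Tpi1, which interconverts the triose phosphates, was at 146 ± 29.0 CPM in ST14high against 139 ± 46.5 CPM in ST14low, with its highest value, 206 CPM, again in ST14low replicate 2.

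Several genes of lower glycolysis were counted at levels that cannot be read as abundance. Gapdh, the dehydrogenase often used as a reference gene, had 16 counts in all 8 libraries together. ST14high replicates 1 to 4 held 2, 6, 5 and 0 counts, ST14low replicate 1 held 3, and ST14low replicates 2, 3 and 4 held 0, where a count of 0 allows up to 0.154, 0.463 and 0.0938 CPM (counting error only). Of all stretches of 36 bases in the annotated Gapdh transcript, 83.7% also occur in a transcript of another gene of the GENCODE M21 annotation. The corresponding share was 68.2% for Pgk1, 42.0% for Pgam1, 75.9% for Eno1, 71.5% for Bnip3, 45.6% for Pkm2 and 33.7% for Ldha. For Gpi1 it was 33.3%, for Bnip3l 27.6% and for Aldoa 27.5%, and it was 0% for Pdk3, Egln1, Egln3 and Ddit4. How reads that fit several places were counted is not given in the sources used here, and the part of these shared stretches in the low counts was not tested. Eno1 had 25535 counts, Pgk1 1179 and Pgam1 487. Levels of Gapdh, Pgk1, Pgam1, Eno1, Pkm2, Ldha, Gpi1, Aldoa, Bnip3 and Bnip3l are therefore uncertain.

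Pgk1, the first enzyme of glycolysis to yield ATP, was at 5.97 ± 0.899 CPM in ST14high against 6.60 ± 1.99 CPM in ST14low (n = 4 each). Pgam1, the mutase that follows it, was at 2.25 ± 0.46 and 2.68 ± 0.546 CPM. Eno1, the general enolase, had the most negative fold change of the 32 members. It was at 104, 126, 125 and 86.9 CPM in ST14high and at 155, 226, 102 and 119 CPM in ST14low. The populations overlapped, with ST14low replicates 1 and 2 above every ST14high library, and the log2 fold change was -0.45 (SE 0.24, adjusted p = 0.584). Eno2, the neuronal form, was at 3.41, 2.15, 3.35 and 0.92 CPM in ST14high and 2.09, 1.43, 0.463 and 1.78 CPM in ST14low. Pkm2, the symbol under which the files give muscle-type pyruvate kinase, was at 160.4 CPM in ST14high replicate 1 and at 51.4, 59.3 and 49.3 CPM in the other ST14high libraries. In ST14low it was at 57.6, 77.1, 38.3 and 43.9 CPM. Only replicate 1 lay outside the ST14low range, and the log2 fold change of 0.56 (SE 0.40) became -0.03 without it. The row does not separate the M1 and M2 splice forms of the enzyme.

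Pyruvate is reduced to lactate by lactate dehydrogenase or enters the mitochondria, where the kinases Pdk1 and Pdk3 block the entry point. Ldha was at 134, 97.8, 94.8 and 83.6 CPM in ST14high and at 95.4, 171, 83.0 and 83.0 CPM in ST14low. The 2 highest libraries, ST14high replicate 1 and ST14low replicate 2, came from different populations, and the log2 fold change was -0.08 (SE 0.25), or -0.24 without ST14high replicate 1. Pdk1 was at 49.9, 49.6, 52.4 and 56.6 CPM in ST14high and at 66.3, 47.6, 64.8 and 62.5 CPM in ST14low. In 3 of the 4 ST14low libraries Pdk1 exceeded every ST14high library, and ST14low replicate 2 lay below them all. Its log2 fold change was -0.21 (SE 0.14, adjusted p = 0.649). Pdk3 was at 10.7 ± 1.92 and 13.4 ± 2.26 CPM (log2 fold change -0.33, SE 0.22, adjusted p = 0.652). All 3 genes of this step had fold changes below 0, and none passed the test.

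The subunits of HIF were well counted, and in each the populations overlapped. Hif1a, the alpha subunit that responds in most cells, was at 174, 144, 143 and 135 CPM in ST14high and at 132, 117, 182 and 163 CPM in ST14low. Both populations averaged 149 CPM, and the 95% interval of the log2 fold change ran from -0.36 to 0.36 (log2 fold change 0.004, or -0.08 without ST14high replicate 1). Epas1, which encodes the second alpha subunit, was at 246 ± 54.1 CPM in ST14high against 217 ± 65.5 CPM in ST14low, with its lowest value, 121 CPM, in ST14low replicate 2. Arnt, the shared partner, was at 106 ± 6.38 and 113 ± 17.7 CPM (log2 fold change -0.10, SE 0.14). Per length, Epas1 lay above Hif1a in 7 of the 8 libraries, and Arnt averaged 30.8 RPKM beside 35.4 RPKM for Hif1a and 48.6 RPKM for Epas1. The ranges of Arnt and Hif1a over the libraries overlapped, at 25.5 to 38.6 and 27.4 to 43.9 RPKM.

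The prolyl hydroxylases that mark HIF differed from each other in their pattern. Egln1, the main oxygen sensor, was at 59.9, 70.7, 75.6 and 48.5 CPM in ST14high and at 80.7, 73.1, 72.7 and 67.3 CPM in ST14low (log2 fold change -0.21, SE 0.16, adjusted p = 0.689). Egln3, which HIF itself induces, was at 83.6, 20.4, 16.5 and 24.2 CPM in ST14high and at 21.6, 14.0, 14.2 and 15.9 CPM in ST14low. Replicate 1 of ST14high was the one library far from the rest, and without it the populations overlapped between 16.5 and 21.6 CPM. The log2 fold change was 1.13 (SE 0.48, edgeR adjusted p = 0.506) and 0.30 (SE 0.22, adjusted p = 0.662) without that library. Egln3 made up 65.1% of the summed RPKM of Egln1 and Egln3 in ST14high replicate 1. In the other ST14high libraries it made up 22.7% to 40.0% and in ST14low 20.4% to 26.4%. Egln2, a further hydroxylase outside the 33 genes that is named after its values were seen, averaged 40.3 RPKM (34.1 to 46.9 RPKM) and is not in that sum.

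Among HIF targets, Car9 was the one member without overlap between the populations. Car9 is a carbonic anhydrase at the cell surface that hydrates CO2 outside the cell. It is counted at chr4:43519897-43526597 on the plus strand of build mm9, with 5664 counts over the 8 libraries. It was at 283, 15.8, 4.49 and 13.5 CPM in ST14high and at 3.37, 1.84, 1.23 and 0.782 CPM in ST14low. Every ST14high library was above every ST14low library, although ST14high replicate 3 and ST14low replicate 1 were close. The log2 fold change was 5.41 (SE 1.35, 95% interval from 2.40 to 8.42) with an edgeR adjusted p of 0.253. Without ST14high replicate 1, which alone sets the size of the mean, it was 2.61 (SE 0.56, adjusted p = 0.154). DESeq2 gave Car9 no p on all libraries, and without ST14high replicate 1 it called Car9 higher (log2 fold change 2.61, adjusted p = 0.00129). Car9 was then the 1 member called, where DESeq2 called 2.04% of all genes and 1.45% as higher. Of the markers of mesothelium, the layer that covers the liver, 5 were in the files and none was at 0 throughout. They summed to 778, 119, 170.3 and 186 CPM in ST14high and 26.7, 22.3, 54.8 and 18.5 CPM in ST14low, and the populations did not overlap. Markers of fibroblasts, stellate cells and smooth muscle (10 of 10, none at 0 throughout) did not overlap either. Acinar markers (14, with Amy2a5 at 0 throughout) summed to 11146, 1646, 5.67 and 11.9 CPM in ST14high and to 126, 10.3, 4.94 and 10.3 CPM in ST14low, so the populations overlapped. They put the 4 ST14high libraries in the same order as Car9 does. In ST14low the acinar sums did not follow the order of Car9, nor did the mesothelial and fibroblast sums in ST14high. The part of these markers in the Car9 difference was not tested. In bulk libraries a smaller share of cells of 1 type and less RNA per cell cannot be told apart.

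**Figure D2:**
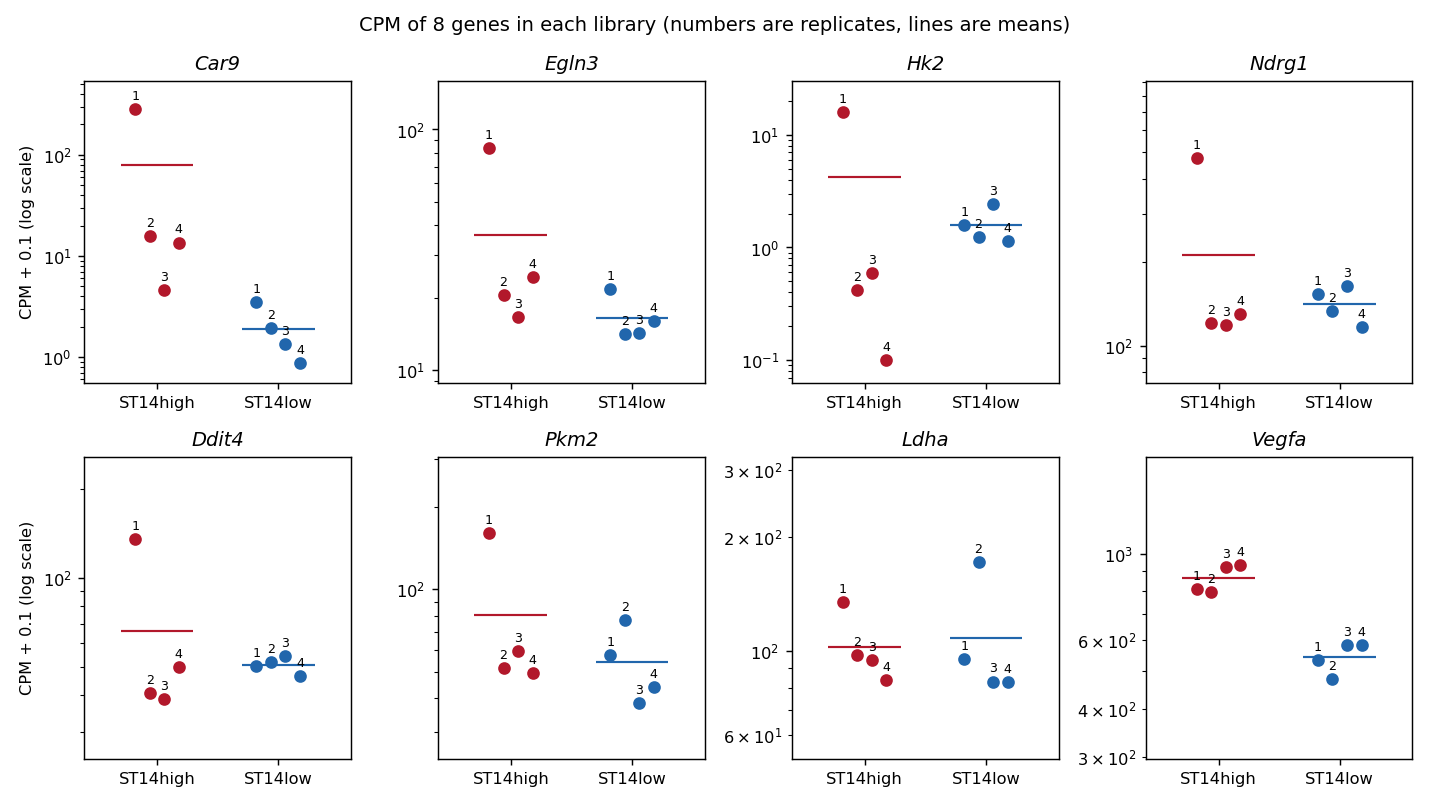
CPM + 0.1 on a log axis for 8 genes, 1 point per library numbered by replicate, with a line at the mean of each population (n = 4). In Egln3, Hk2, Ndrg1, Ddit4 and Pkm2 the point of ST14high replicate 1 lies above all others, in Ldha ST14low replicate 2 is highest, and in Car9 and Vegfa the populations do not overlap.

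Of the other targets for secretion, signalling and stress, Ndrg1, Ddit4 and Adm were highest in ST14high replicate 1. Ndrg1, a gene of differentiation and stress, was at 477 CPM there, at 121, 119 and 130.3 CPM in the other ST14high libraries and at 153, 133, 164 and 117 CPM in ST14low. Ddit4, an inhibitor of mTORC1 signalling, was at 136 CPM in that library, at 40.5, 38.8 and 49.7 CPM in the others and at 50.1, 51.7, 54.2 and 46.4 CPM in ST14low. The 3 remaining ST14high libraries lay inside the ST14low range for Ndrg1, and for Ddit4 replicates 2 and 3 lay below it. The log2 fold change of Ndrg1 was 0.58 (SE 0.44), and -0.20 without the library, and that of Ddit4 0.39 (SE 0.37), and -0.23 without it. Adm, the precursor of the vasodilator peptide adrenomedullin, was at 13.0, 2.15, 1.84 and 4.10 CPM in ST14high and at 2.51, 1.33, 2.47 and 2.94 CPM in ST14low (log2 fold change 1.18, adjusted p = 0.584, or 0.22 without the library). Ankrd37, an ankyrin repeat protein, had 320 counts in all, was highest in ST14low replicate 1 and was at 1.55 ± 1.07 and 1.904 ± 0.543 CPM. The mitophagy receptors, which lead mitochondria to degradation, had log2 fold changes below 0. Without ST14high replicate 1 these were -0.20 for Bnip3l and -0.06 for Bnip3, when Ndrg1 and Ddit4 were below 0 too. Bnip3l was at 89.9, 105, 100.2 and 102 CPM in ST14high and at 113, 99.6, 142 and 119 CPM in ST14low (log2 fold change -0.25, SE 0.13, adjusted p = 0.578). Bnip3 was at 11.4 ± 2.42 and 12.7 ± 1.72 CPM. ST14high replicate 1, the highest library for Car9, Ndrg1 and Egln3, was the lowest of the 8 for both Bnip3 and Bnip3l.

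Ero1l, which passes electrons to oxygen as disulfide bonds form in the endoplasmic reticulum, was at 22.7 ± 3.59 CPM in ST14high against 22.8 ± 4.09 CPM in ST14low (log2 fold change -0.01, 95% interval from -0.43 to 0.41, or -0.12 without ST14high replicate 1). P4ha1 and P4ha2 encode the catalytic subunits of collagen prolyl hydroxylase, an enzyme of matrix assembly. P4ha1 was at 50.4, 33.6, 28.1 and 26.1 CPM in ST14high and at 26.4, 43.9, 24.2 and 21.3 CPM in ST14low, and the populations overlapped. P4ha2 was at 19.5 ± 3.13 and 17.9 ± 3.83 CPM.

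**Figure D3:**
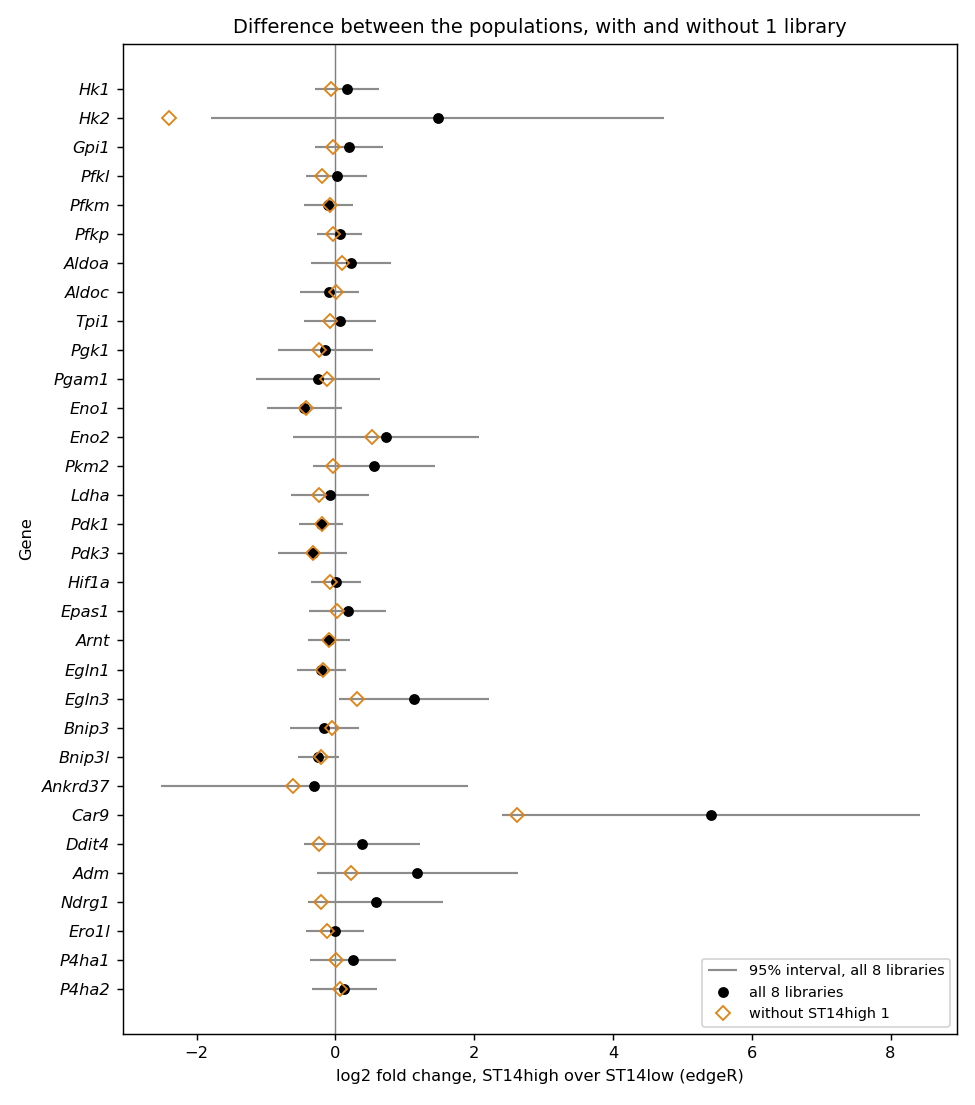
Log2 fold change of each of the 32 tested genes, ST14high over ST14low, with all 8 libraries (black points, with 95% intervals from edgeR) and without ST14high replicate 1 (open diamonds). Of the 32 points, 4 lie beyond 1 either way (Adm, Car9, Egln3 and Hk2); Car9 stays above 0, at 2.61, and Hk2 moves from 1.47 to -2.40.

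The members did not vary as 1 block across the libraries. ST14high replicate 1 was the highest of the 8 libraries for 15 of the 32 members (46.9%), where it was the highest for 23.0% of all genes tested. Its CPM was a median of 1.38 times the median of the other ST14high libraries over the members and 0.99 times over the 13640 genes with a value. The ratio exceeded 2 in 7 members (21.9%, against 13.9% of genes): Hk2, Pkm2, Egln3, Car9, Ddit4, Adm and Ndrg1. Of the 15 hypoxia response members, 5 were among these, and of the 17 tested genes for glycolysis and pyruvate, 2. ST14low replicate 2 had another pattern. It was the highest library for 8 of the 17 glycolysis and pyruvate genes (47.1%, against 23.0% of all genes): Aldoa, Aldoc, Tpi1, Pgk1, Pgam1, Eno1, Ldha and Pdk3. It was the lowest library for 6 of the 15 hypoxia response members (40.0%, against 22.2% of all genes): Hif1a, Epas1, Arnt, Egln3, Adm and Ero1l. ST14low replicate 3, the library of least depth, was the lowest for 7 of the 17 glycolysis and pyruvate genes (41.2%, against 12.5% of all genes). It was the highest for 4 of the 15 hypoxia response members (26.7%, against 13.0% of all genes): Hif1a, Arnt, Bnip3 and Bnip3l. Library and population cannot be separated in single libraries, so these are descriptions with no test.

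Shares of summed RPKM were taken within families of isoenzymes, among the 33 genes alone. Relatives outside them are not in these sums and would lower the shares: Hkdc1 averaged 43.3 RPKM beside 22.2 RPKM for Hk1, and Pdk2, named after its values were seen, 23.6 RPKM beside 11.9 RPKM for Pdk1. Hk1 held 97.6% ± 4.17 (SD, n = 4) of the sum of Hk1 and Hk2 in ST14high and 98.5% ± 0.823 in ST14low, with Hk2 at 8.62% in ST14high replicate 1 and at most 2.71% elsewhere. The 3 phosphofructokinase subunits were mixed, with Pfkl at 42.6% ± 5.87 and 42.8% ± 2.002, Pfkp at 36.4% ± 3.03 and 34.96% ± 1.91, and Pfkm at 21.0% ± 3.65 and 22.3% ± 2.56. Aldoa held 83.2% ± 4.67 and 79.9% ± 2.65 of the sum of Aldoa and Aldoc, and Eno1 98.7% ± 0.592 and 99.4% ± 0.315 of the sum of Eno1 and Eno2. Pdk1 held 61.9% ± 4.53 and 59.7% ± 7.43 of the sum of Pdk1 and Pdk3. Epas1 held 59.1% ± 2.64 and 55.6% ± 5.56 of the sum of Epas1 and Hif1a, Bnip3l 81.8% ± 2.65 and 82.5% ± 1.54 of its pair, and P4ha2 54.4% ± 5.73 and 56.5% ± 3.77 of its pair. In each of these families the values of the populations overlapped. Stretches shared with other genes were unequal within some pairs, at 75.9% for Eno1 and 1.45% for Eno2. They were at 71.5% for Bnip3 and 27.6% for Bnip3l, and at 27.5% for Aldoa and 0% for Aldoc. Shares within these pairs are therefore uncertain. Egln1 and Egln3 were the pair whose means lay farthest apart of the 9 families, with Egln3 at 38.9% ± 18.9 and 22.9% ± 2.85, and at 30.2% ± 8.91 in ST14high without replicate 1.

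**Figure D4:**
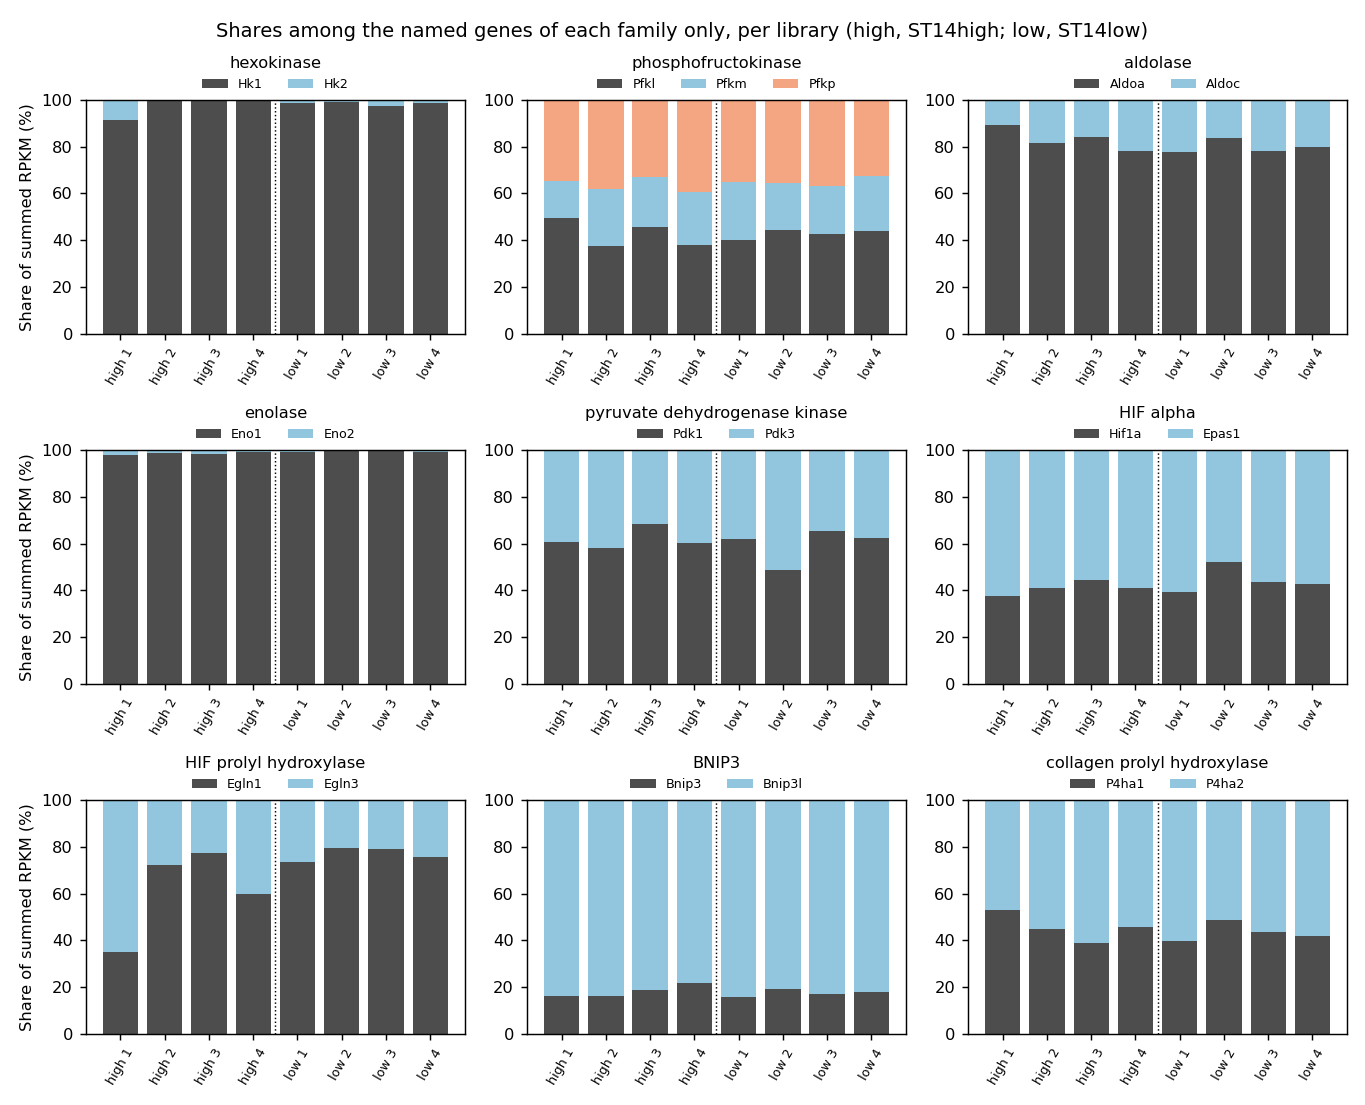
Stacked bars give the share of each gene in the summed RPKM of the named genes of its family, in percent, for each of the 8 libraries, in 9 families, with relatives outside the 33 genes left out; the dotted line parts ST14high from ST14low. Egln3 reaches 65.1% of its pair in ST14high replicate 1, and Hk2 reaches 8.62% of its pair there.

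Of 63 other genes of these pathways, listed in 6 groups, 62 were tested and 0 passed an adjusted p of 0.05 in edgeR. At an unadjusted p under 0.05, 10 were higher and 1 lower in ST14high, against 6.89% and 2.68% of all genes, and without ST14high replicate 1 there were 3 higher and 2 lower, against 6.07% and 3.65%. With all libraries, in 3 the populations did not overlap, all higher (4.84%, against 4.09% of genes). The lists were drawn up with earlier results of these data known. Vegfa, the HIF target that calls in blood vessels, was the clearest of them. It was at 811, 797, 924 and 934 CPM in ST14high and at 534, 475, 584 and 584 CPM in ST14low, a gap wider than the spread within either population. Its log2 fold change was 0.67 (SE 0.13) with an adjusted p of 0.192 in edgeR and 3.03e-05 in DESeq2, which called it alone among the 59 related genes with an adjusted p. Without ST14high replicate 1 the log2 fold change was 0.70 (SE 0.14, DESeq2 adjusted p = 9.2e-05).

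Of the 10 genes of HIF control, 4 had a fold change above 0 and 6 below, and 5 lay on each side without ST14high replicate 1; over all genes 50.3% and 47.9% lay above 0. Vhl, the recognition subunit of the ligase that destroys hydroxylated HIF, was at 25.9, 32.7, 24.7 and 20.6 CPM in ST14high and at 38.3, 44.8, 29.6 and 31.3 CPM in ST14low (log2 fold change -0.47, SE 0.19, adjusted p = 0.49). The populations overlapped through ST14high replicate 2. Hif3a, another alpha subunit, whose short forms restrain HIF, was scarce, at 3.66, 1.39, 1.98 and 2.52 CPM in ST14high and at 0.852, 0.256, 1.08 and 0.625 CPM in ST14low. Every ST14high value was above every ST14low value, on 314 counts in all (log2 fold change 1.79, SE 0.60, adjusted p = 0.396). Among carriers, the lactate carrier Slc16a1 was at 143, 71.8, 76.5 and 70.9 CPM in ST14high and at 58.6, 61.4, 56.6 and 66.0 CPM in ST14low, without overlap (log2 fold change 0.57, SE 0.23, adjusted p = 0.481). Without ST14high replicate 1 its log2 fold change was 0.27. Slc16a3, the lactate exporter of glycolytic cells, was at 12.9 CPM in ST14high replicate 1 and at 0.926 to 2.35 CPM in the other 7 libraries (log2 fold change 1.77, or 0.45 without that library). Of the 20 other hypoxia response genes, 14 had a fold change above 0, or 11 without ST14high replicate 1. Vegfa, Pfkfb3 and the collagen cross-linkers Lox and Loxl2 were among the 5 with an unadjusted p under 0.05. Lox and Loxl2 were highest in ST14high replicate 1, at 23.1 and 75.5 CPM, where at most 2.49 and 18.5 CPM were measured elsewhere. Without that library their log2 fold changes went from 2.87 to 0.95 and from 1.63 to 0.55. Markers of fibroblasts and related cells were also highest in that library, and their part in this was not tested.

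Of 12 other glycolysis enzymes and regulators tested, 9 had a fold change above 0, or 6 without ST14high replicate 1. Pfkfb2 and Pfkfb3 make fructose 2,6-bisphosphate, which stimulates phosphofructokinase. Pfkfb3 was at 187, 132, 79.6 and 113 CPM in ST14high and at 103, 82.2, 81.6 and 90.1 CPM in ST14low (log2 fold change 0.52, SE 0.23, adjusted p = 0.518, or 0.27 without ST14high replicate 1), and Pfkfb2 at 88.5 ± 28.2 and 57.3 ± 18.02 CPM. Eno3, the muscle enolase, was at 7.96, 7.48, 12.1 and 19.5 CPM in ST14high and at 4.99, 7.53, 8.02 and 5.16 CPM in ST14low (adjusted p = 0.49). The populations overlapped in all 3 genes. Hkdc1, a further hexokinase that is named after its values were seen, averaged 43.3 RPKM over the 8 libraries where Hk1 averaged 22.2 RPKM. The lowest Hkdc1 library, at 38.5 RPKM, was above the highest Hk1 library, at 31.2 RPKM. Hk3, named for the same reason, was at 2.78, 0.239, 0 and 0 CPM in ST14high and at 2.64, 5.28, 7.10 and 1.38 CPM in ST14low. With all libraries its adjusted p was 0.607 in edgeR and 0.538 in DESeq2. Without ST14high replicate 1 the adjusted p was 0.165 in edgeR, while DESeq2 called Hk3 lower (adjusted p = 1.43e-05). Macrophage markers moved the same way, with their part not tested. Of 8 liver-type enzymes of glucose metabolism, 6 had a fold change below 0, as without ST14high replicate 1, and none an unadjusted p under 0.05. Pck1, which opens gluconeogenesis, was at 53.8 ± 22.8 CPM in ST14high against 55.0 ± 22.2 CPM in ST14low. Hepatocyte markers summed to 5086 to 12876 CPM in ST14high against 8181 to 14905 CPM in ST14low, and their part in the levels of the liver-type enzymes was not tested. Of 9 genes for pyruvate dehydrogenase and its regulators, 7 had a fold change above 0, but 2 without ST14high replicate 1. Pdha1, its catalytic subunit, was at 205 ± 44.6 and 187 ± 2.23 CPM, with Dld, the shared dehydrogenase, at 119 ± 4.96 and 113 ± 13.7 CPM.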

How the data were processed

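Duct cell RNA was sequenced in 8 libraries, 4 per population (TruSeq chemistry, per the labels' protocols). The submitters' processing notes name CASAVA 1.8.2, then Bowtie 1.0.0, with mm9 as the build. Which program counted the reads, on which annotation release, with which strand setting and with what treatment of reads that fit several places is not given in the sources used here. The authors deposited a whole-number raw read count per RefSeq transcript, not normalized, per the file headers. The deposited RPKM beside it is scaled by transcript length and library size; it served only for levels between genes and shares within families, never in a test.

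For each symbol the transcript row with the most counts was kept. The main test was edgeR's quasi-likelihood test (edgeR 4.0.16, R 4.3.3; filterByExpr, TMM factors, population as the only term, two-sided), with Benjamini-Hochberg adjustment over all 13749 genes tested and a threshold of 0.05. CPM use TMM-scaled library sizes. Depth ran from 6398307 to 42769980 counts, and intervals of a count of 0 cover counting error only. Alternatives were DESeq2 1.42.0, limma 3.58.1, DESeq2's size factors, other filters, the longest transcript, a replicate block and leaving out each library. The voom fit of limma gave each library an estimated quality weight. The fit was tested on simulated data. Genes described in full are members past a p of 0.05, adjusted or not, or without overlap, with their partners in the same role; of each related list, those past the same thresholds or else the 2 of highest mean. Some genes that this rule picks are not reported here. Members and lists were chosen with earlier results of these data known. Shared stretches were counted on GENCODE M21 transcripts, on either strand; promoters are from RefSeq (GRCm38.p6). Plots were drawn with matplotlib 3.10.9 from tables made in Python 3.11.15 (pandas 2.3.3, numpy 2.4.6).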

Additional observations from a re-analysis of the deposited data

Results flagged for a closer look

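Among 66 sets of 4 libraries (33 genes in each population), 8 had a library far from the other 3 by Dixon's 95% criterion on the gap to the nearest library, where chance flags about 1 in 20 sets. Among the 32 members tested that is 12.5% of 64 sets, and over all genes tested 8.04% of 27498 sets had such a library. Of the 8, 7 were ST14high replicate 1 as the highest library, so they describe 1 library and are not independent; that library stood so far above its group in 21.9% of the members tested and in 6.79% of all genes tested. Car9 was at 283 CPM there, with the next ST14high library at 15.8 CPM. Ndrg1 was at 477 CPM, with the next at 130.3 CPM. Pkm2 was at 160.4 CPM, with the next at 59.3 CPM. Ddit4 was at 136 CPM, with the next at 49.7 CPM. Hk1 was at 119.7 CPM, with the next at 70.9 CPM. Egln3 was at 83.6 CPM, with the next at 24.2 CPM. Hk2 was at 15.7 CPM, with the next at 0.496 CPM. The remaining set was Ldha in ST14low, where replicate 2 was at 171 CPM and the next library at 95.4 CPM.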

How the results depend on the processing

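The results were recomputed under 16 other settings. The number of members called by edgeR stayed at 0, as it did for limma, both other filters, DESeq2's size factors, the longest transcript and the replicate block, and DESeq2 called 0 members on all libraries. DESeq2 called 233 genes in all, of them 1 related gene, and without ST14high replicate 1 it called 283 genes, 1 member and 2 related genes. Leaving out 1 library at a time gave 0 genes, 0 members and 0 related genes in edgeR. The count of members without overlap was 0 where at least 5 CPM in at least 4 libraries was asked, since Car9 was then not tested, and 2 in DESeq2's fit without ST14high replicate 1. It ran from 1 to 4 when 1 library was left out, with 4 (Car9 higher; Arnt, Bnip3l and Pdk1 lower) without ST14low replicate 2. It was 3 without replicate 1 of ST14low, and 2 without its replicate 3 or without replicate 1 or 4 of ST14high. Over all genes the share without overlap also rose, from 6.42% with all libraries to 11.8% without ST14high replicate 1. The all-gene shares for the other libraries are not given here, so these counts are no result about the members. Of the 32 members, 14 kept the direction of their fold change in all 16 settings, Car9, Egln3 and Eno1 among them, and 18 turned in at least 1; no turned value passed an adjusted p of 0.05, and the cause was not tested.

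The log2 fold changes that turned were, in DESeq2 without ST14high replicate 1, Hk1 -0.082, Hk2 -2.45, Gpi1 -0.055, Pfkl -0.20, Pfkp -0.043, Tpi1 -0.093, Pkm2 -0.045, Hif1a -0.10, Ddit4 -0.25, Ndrg1 -0.21, P4ha1 -0.0060, Pck1 0.15 and Pdha1 -0.047. In limma's voom fit they were Hk2 -2.07, Pfkl -0.055, Pgk1 0.11, Ldha 0.12, Hif1a -0.11, Epas1 -0.023, Ddit4 -0.092, Adm -0.061 and Pck1 0.27. Hif1a, close to 0, was also at -0.0045, -0.0053, -0.0040 with DESeq2's size factors, without the low-count filter and in DESeq2. With 1 library left out, the ranges of those that turned were Hk1 -0.065 to 0.26, Hk2 -2.40 to 1.89, Gpi1 -0.038 to 0.32, Pfkl -0.19 to 0.14, Pfkp -0.027 to 0.12, Aldoc -0.23 to 0.031, Tpi1 -0.076 to 0.32, Pgk1 -0.28 to 0.073, Pkm2 -0.029 to 0.77, Ldha -0.24 to 0.23, Hif1a -0.10 to 0.11, Epas1 -0.020 to 0.29, Ankrd37 -0.61 to 0.11, Ddit4 -0.23 to 0.56, Ndrg1 -0.20 to 0.77, Ero1l -0.12 to 0.059, Pck1 -0.31 to 0.16 and Pdha1 -0.032 to 0.20.

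Replicate numbers were not taken as pairs in the main test. The correlations of same-numbered libraries' deviations from their population means ran from -0.125 to 0.0522. No ST14high library correlated best with its own number, and of the ST14low libraries only replicate 2 did. With 4 libraries per population such values cannot tell whether the samples were paired. A fit with the replicate block called 2 genes over all genes and 0 members, and turned Hk2 -1.65 and Pfkl -0.015. Gapdh, Hk2, Ankrd37, Eno2, Pgam1 and Adm had 16 to 671 counts over the 8 libraries, which limits the precision of their values; why they were few was not tested.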
